A study of Mus musculus with 30 samples.

Results

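Dazl, Sycp3, Sycp1, Mael, Ddx4, Smc1b, Stra8, Hormad1, Slc25a31 and Tex101 are 10 mouse genes whose products work in germ cells, most of them during meiosis. They were taken by gene symbol from a table of 20563 genes, in which each symbol appeared once, and were read across all 30 RNA-seq libraries. All 10 passed the filter on low values, 10 normalised counts or more in 2 or more libraries, which left 15712 genes for testing. The libraries came from mouse embryonic stem (ES) cell lines with and without parts of the Polycomb repressive complex PRC2, kept as ES cells or allowed to differentiate as embryoid bodies, which are free-floating aggregates that form many cell types.

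There were 5 lines at 3 times, with 2 libraries for each of the 15 groups, which the design text calls biological duplicates. The Pali1 knockout line (genotype Pali1-/-) and the Pali1/2 double knockout line (Pali1-/-, Pali2-/-) were set against the Pali wild type line, and the Aebp2 gene trap line (Aebp2gt/gt) was set against the C129 wild type line. Day 0 cells were ES cells kept on gelatin with leukemia inhibitory factor (LIF). Day 4 and day 8 cells were embryoid bodies harvested that many days after LIF withdrawal on non-adherent dishes. The labels do not give the clones behind each genotype, and that the C129 wild type line is the control of the gene trap line was read from the wording of the series' design. Nothing says what was duplicated (a culture, a clone or a differentiation), so p-values measure the spread between these pairs of libraries. The descriptions of Pali1/2 double knockout replicate 1 at day 0 and at day 4 each name the other culture state than the title; the titles were followed. By title, 8 pluripotent cell markers summed to 79257 normalised counts in replicate 1 at day 0 and 30270 at day 4. Replicate 2 summed to 81289 and 26789 at the same days.

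Aebp2 read 17.1 to 66.4 normalised counts in the 6 gene trap libraries, against 1232 to 2784 in the other 24. Whole-gene values of Lcor (41.4 to 133 over all 30 libraries) and Lcorl (294 to 858), the loci that encode PALI1 and PALI2, do not measure the deleted parts and check nothing. All 8 pluripotent cell markers were present at day 0 in every line, with summed levels of 79257 to 119345 normalised counts. Each library's values summed to 15470100 to 18336800, and their most frequent low value, taken as 1 read, puts the depth at about 13198298 to 28151943 reads.

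In the animal, germ cells enter meiosis after retinoic acid switches on Stra8. Chromosomes then build an axis of cohesin and HORMA-domain proteins, and the synaptonemal complex zips homologous axes together, while RNA-binding proteins and the piRNA pathway guard the germ cell genome. In other cells many of these genes have CpG-rich promoters that are held silent by DNA methylation and by the Polycomb complex PRC1.6, which carries the DNA-binding factors E2F6 and MGA with MAX. PRC2, the complex that places methyl groups on histone H3, works with accessory subunits, among them AEBP2 and the PALI proteins.

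Promoters are shown for 5 of the genes. Sycp3, Mael, Sycp1 and Slc25a31 passed the test in several comparisons, as did others not shown, Smc1b among them. Stra8 was near 0 in most libraries and is the one with a CpG-poor window. Each window runs 5′ to 3′ on the gene's strand, from 250 bases before to 50 bases after the start that RefSeq gives on GRCm38.p6. Capitals mark TCCCGC, a core of E2F-type sites, and CACGTG, the E-box bound by MAX heterodimers, searched on both strands (TCCCGC on the other strand reads GCGGGA); no matches overlapped.
Sycp3, chr10:88459337-88459636, plus strand: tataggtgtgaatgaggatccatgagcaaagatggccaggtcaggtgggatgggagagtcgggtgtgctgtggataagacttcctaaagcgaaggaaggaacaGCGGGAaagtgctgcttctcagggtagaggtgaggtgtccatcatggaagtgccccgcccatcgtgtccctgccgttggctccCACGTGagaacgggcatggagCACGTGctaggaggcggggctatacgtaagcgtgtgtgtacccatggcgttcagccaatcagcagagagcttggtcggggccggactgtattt
Mael, chr1:166238695-166238994, minus strand: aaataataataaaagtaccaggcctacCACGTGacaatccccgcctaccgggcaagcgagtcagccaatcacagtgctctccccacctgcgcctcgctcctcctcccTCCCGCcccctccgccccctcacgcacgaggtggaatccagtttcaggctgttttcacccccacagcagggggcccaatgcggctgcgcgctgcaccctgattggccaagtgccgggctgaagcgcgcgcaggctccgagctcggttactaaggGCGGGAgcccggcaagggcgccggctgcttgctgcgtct
Sycp1, chr3:102936051-102936350, minus strand: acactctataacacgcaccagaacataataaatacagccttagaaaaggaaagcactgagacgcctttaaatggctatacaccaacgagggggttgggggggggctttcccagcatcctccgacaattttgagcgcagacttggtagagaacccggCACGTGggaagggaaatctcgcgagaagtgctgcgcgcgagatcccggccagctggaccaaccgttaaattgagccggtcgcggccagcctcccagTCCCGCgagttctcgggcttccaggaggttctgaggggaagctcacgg
Slc25a31, chr3:40708621-40708920, plus strand: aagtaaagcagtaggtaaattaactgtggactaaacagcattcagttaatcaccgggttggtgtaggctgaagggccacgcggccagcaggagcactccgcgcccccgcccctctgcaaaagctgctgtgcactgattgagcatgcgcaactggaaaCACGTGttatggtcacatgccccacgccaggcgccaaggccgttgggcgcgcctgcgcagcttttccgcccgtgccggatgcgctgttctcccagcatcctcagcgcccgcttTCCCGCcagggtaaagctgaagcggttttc
Stra8, chr6:34920698-34920997, plus strand: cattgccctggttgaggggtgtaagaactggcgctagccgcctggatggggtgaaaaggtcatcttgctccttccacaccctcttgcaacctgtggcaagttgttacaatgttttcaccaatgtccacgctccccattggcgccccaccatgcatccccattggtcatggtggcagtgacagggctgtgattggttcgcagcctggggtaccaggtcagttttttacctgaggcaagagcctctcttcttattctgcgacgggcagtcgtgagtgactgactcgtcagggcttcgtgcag

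Windows of all 10 genes were found. By gene, TCCCGC was in 7 of 10, CACGTG in 6 and both in 6 (Sycp3, Sycp1, Mael, Ddx4, Hormad1 and Slc25a31). Smc1b held TCCCGC alone, and Dazl, Stra8 and Tex101 held neither. Over all 32851 RefSeq promoter windows of this length, 20.0% held TCCCGC, 7.15% CACGTG and 1.99% both. CpG content differs too: 9 of the 10 genes had an observed-over-expected CpG ratio of at least 0.6, the exception being Stra8 at 0.43. Among the 11765 windows at or above 0.6, the shares were 43.1%, 11.3% and 4.77%. The RefSeq starts of Stra8, Tex101 and Ddx4 lie 785, -4625 and -165 bases from the GENCODE starts in genome coordinates, which given their strands is downstream for each, so for these genes the window need not be the promoter in use. A match is a string of letters and not a bound site.

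At day 8 Sycp3 and Mael differed in opposite directions in the Pali1 knockout and Aebp2 gene trap lines. Both were lower in Pali1 knockout embryoid bodies than in Pali wild type (13.6% of all tested genes called, 6.52% lower). Both were higher in Aebp2 gene trap embryoid bodies than in C129 wild type (all genes 20.1%, with 9.59% higher). In ES cells the calls were of genes other than Sycp3 and Mael. Sycp1, Smc1b, Slc25a31 and Tex101 were lower in the gene trap line (13.0% of all tested genes called, 7.78% lower). Each of these calls was lost in at least 1 alternative setting. Mael read lower there too without passing, and Slc25a31 was called higher at day 8. None of the 10 passed the test in the Pali mutants at day 0 (all genes 4.79% and 3.67%). C129 wild type ES cells held more RNA of 6 of the genes than Pali wild type ES cells (all genes 21.1%, with 12.0% higher). The difference between the gene trap effect and the Pali1 knockout effect at day 8 was itself tested. It passed for 2 of the 10 genes, beside 28.5% of all tested genes. These were Sycp3 (log2 difference of effects 4.66, adjusted p = 9.20e-07) and Mael (4.14, adjusted p = 3.30e-06). In bulk RNA, fewer cells that express a gene and less of its RNA per cell cannot be told apart.

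**Figure D1:**
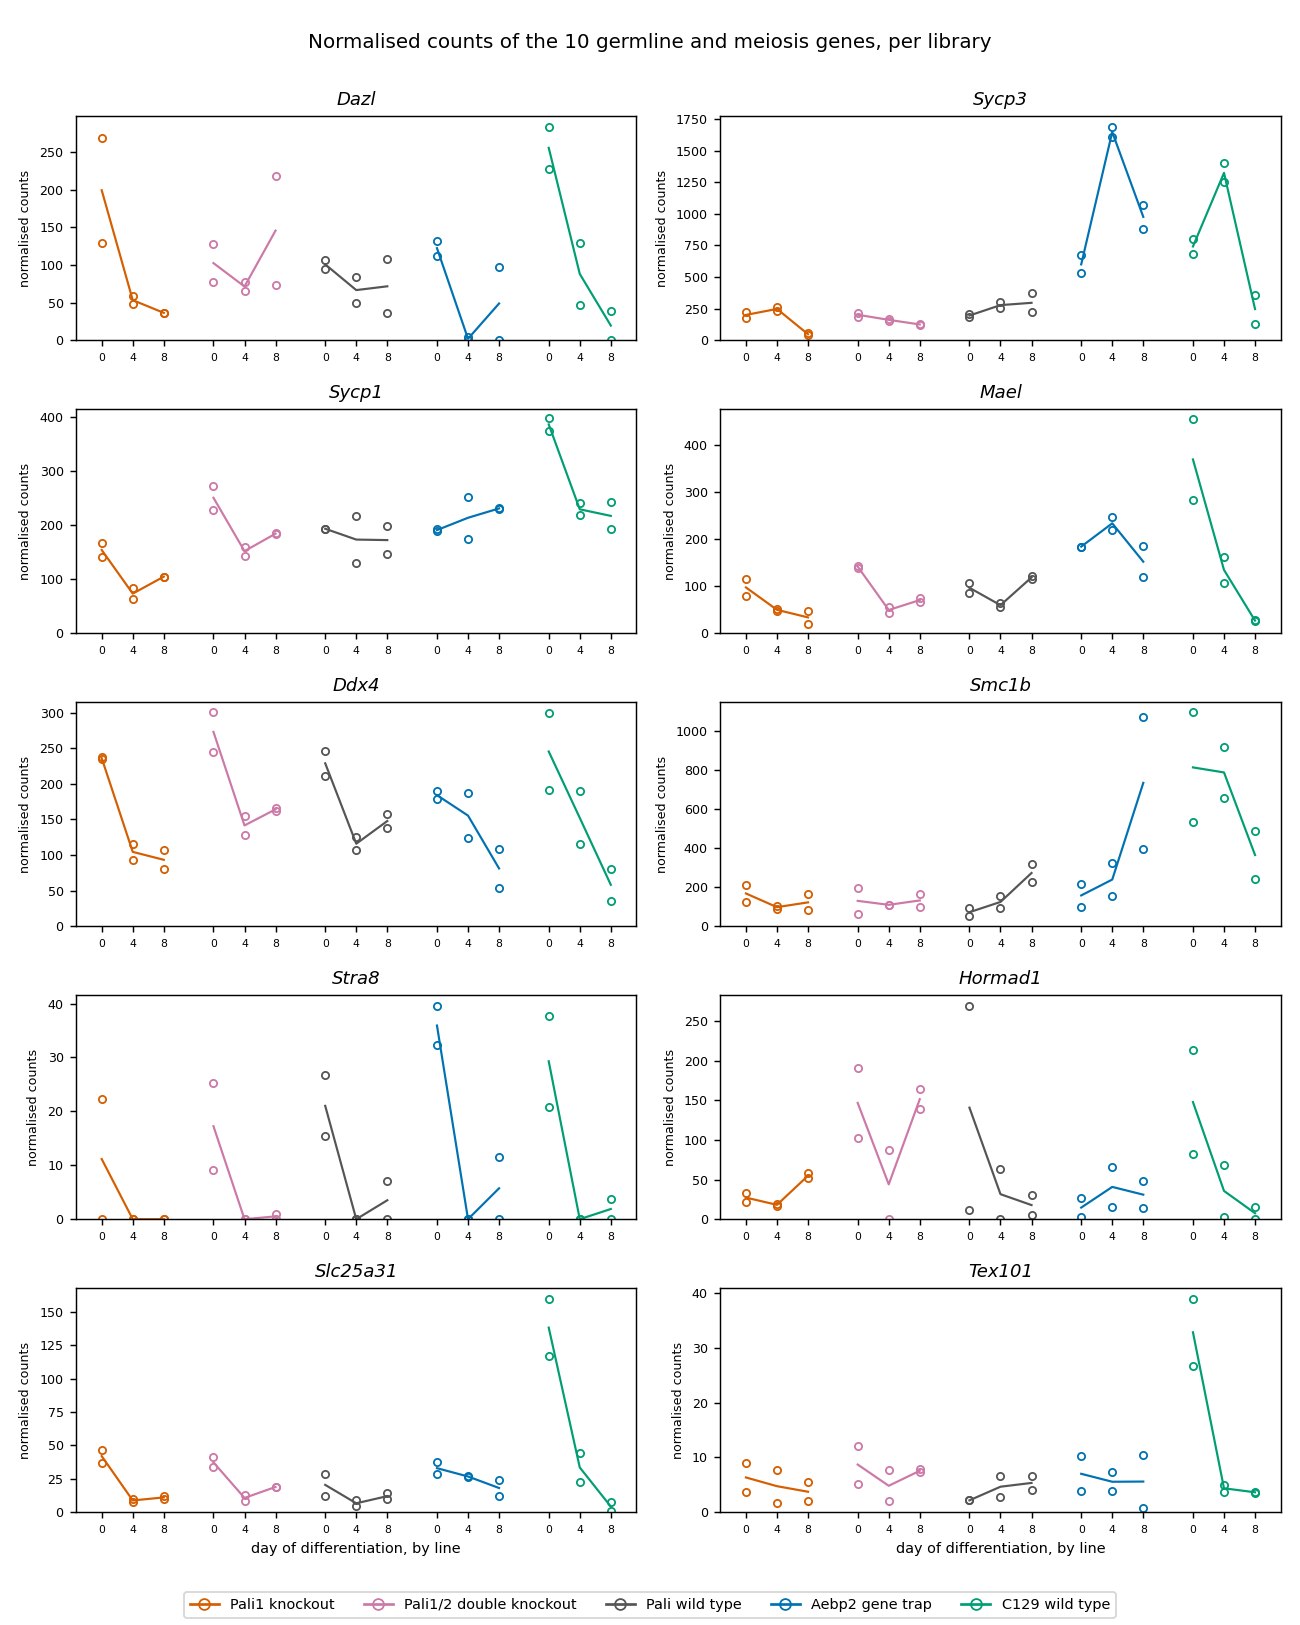
Normalised counts (linear axes from 0) of each gene against day of differentiation (0, 4, 8), one block per line; circles are the 2 libraries of a group and lines join their means. Sycp3 and Mael are at their lowest at day 8 in Pali1 knockout and C129 wild type cells within each line, and their day 8 means are highest in Aebp2 gene trap cells; Stra8 is at 0 in all 10 day 4 libraries.

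Sycp3 (10:88459569-88473236, plus strand, GRCm38) encodes a structural protein of the lateral element of the synaptonemal complex. In Pali1 knockout cells it read 227 and 173 at day 0, 228 and 266 at day 4 and 54.4 and 39.6 at day 8. In Pali1/2 double knockout cells it read 185 and 218 at day 0, 154 and 168 at day 4 and 129.5 and 119 at day 8. In Pali wild type cells it read 183 and 207 at day 0, 251.05 and 304 at day 4 and 222 and 370.0 at day 8. The 3 lines overlapped at day 0, and at day 8 both mutants lay below every wild type library, the single knockout lowest. At day 8 Sycp3 averaged 47.0 ± 10.4 in Pali1 knockout and 296 ± 105 in Pali wild type embryoid bodies (SD, n = 2 each; log2 fold change -2.53 ± 0.32 (SE), adjusted p = 7.96e-05). In the double knockout at day 8 it averaged 124 ± 7.07 (log2 fold change -1.18 ± 0.32 (SE), adjusted p = 0.0338). The double knockout call was lost without Pali wild type day 8 replicate 2 (adjusted p = 0.303) or Pali1/2 double knockout day 8 replicate 1 or 2 (adjusted p = 0.128 or 0.153). The single knockout call held in all 12 alternative settings tried. The double knockout stood above the single knockout at day 8 (log2 fold change 1.35 ± 0.32 (SE), adjusted p = 0.0451). That call was lost without Pali1/2 double knockout day 8 replicate 1 or 2 (adjusted p = 0.228 or 0.172) or Pali1 knockout day 8 replicate 1 or 2 (adjusted p = 0.0924 or 0.304), and with an added value of 16 (adjusted p = 0.0582).

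The Aebp2 and C129 lines held more Sycp3 at each time than the Pali lines, apart from C129 wild type at day 8. In Aebp2 gene trap cells it read 529 and 672 at day 0, 1692 and 1605 at day 4 and 1070.3 and 883 at day 8. In C129 wild type cells it read 682 and 802 at day 0, 1400.2 and 1249.9 at day 4 and 361 and 132 at day 8. The gene trap libraries lay below the wild type libraries at day 0 and above them at days 4 and 8, and no day's groups overlapped. The difference passed the test at day 8, where Sycp3 averaged 976 ± 133 in gene trap and 246 ± 162 in C129 wild type embryoid bodies (SD, n = 2 each; log2 fold change 2.13 ± 0.32 (SE), adjusted p = 0.000149), in all 12 alternative settings as well. It did not pass at day 0 (log2 fold change -0.31, adjusted p = 0.622) or day 4 (log2 fold change 0.32, adjusted p = 0.624). In the gene trap line Sycp3 rose by day 4 (log2 fold change 1.46 ± 0.32 (SE), adjusted p = 0.00194). From day 4 to day 8 it fell in C129 wild type (log2 fold change -2.58, adjusted p = 1.39e-05) and in Pali1 knockout cells (log2 fold change -2.31, adjusted p = 0.000109). Chpt1, on the opposite strand, overlaps the Sycp3 locus, and the sources used here do not say whether reads were assigned by strand.

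Mael (1:166201201-166238747, minus strand) encodes Maelstrom, a piRNA pathway protein that restrains transposons in the male germ line, and its RNA followed a pattern like that of Sycp3 at day 8. In Pali1 knockout cells it read 79.4 and 116 at day 0, 51.3 and 48.2 at day 4 and 47.8 and 19.3 at day 8. In Pali1/2 double knockout cells it read 144 and 139.8 at day 0, 56.7 and 42.0 at day 4 and 75.2 and 65.9 at day 8. In Pali wild type cells it read 86.6 and 107 at day 0, 64.3 and 54.9 at day 4 and 116 and 121 at day 8. The ranges of the 3 Pali lines lay close together at day 4, and at day 8 both wild type libraries lay above all 4 mutant libraries. Mael averaged 33.6 ± 20.2 in Pali1 knockout and 119 ± 3.34 in Pali wild type embryoid bodies at day 8 (SD, n = 2 each; log2 fold change -1.82 ± 0.32 (SE), adjusted p = 0.00110). In the double knockout the difference was -0.72 on the log2 scale (95% interval -1.40 to -0.04) and did not pass (adjusted p = 0.207).

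In Aebp2 gene trap cells Mael read 184 and 184 at day 0, 248 and 220.5 at day 4 and 185 and 119.5 at day 8. In C129 wild type cells it read 455 and 285 at day 0, 163 and 107 at day 4 and 25.5 and 27.9 at day 8. The gene trap libraries lay below both C129 wild type libraries at day 0 and above both at days 4 and 8. Gene trap embryoid bodies at day 8 averaged 152 ± 46.3 and C129 wild type embryoid bodies 26.7 ± 1.71 (SD, n = 2 each; log2 fold change 2.32 ± 0.32 (SE), adjusted p = 7.58e-05). At day 0 the difference was -0.95 (adjusted p = 0.0629) and at day 4 0.81 (adjusted p = 0.137), and neither passed. Between day 0 and day 8 Mael fell by 3.57 on the log2 scale in C129 wild type cells (adjusted p = 9.27e-08). The day 8 calls of Mael in the Pali1 knockout and the gene trap held in all 12 alternative settings tried.

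**Figure D2:**
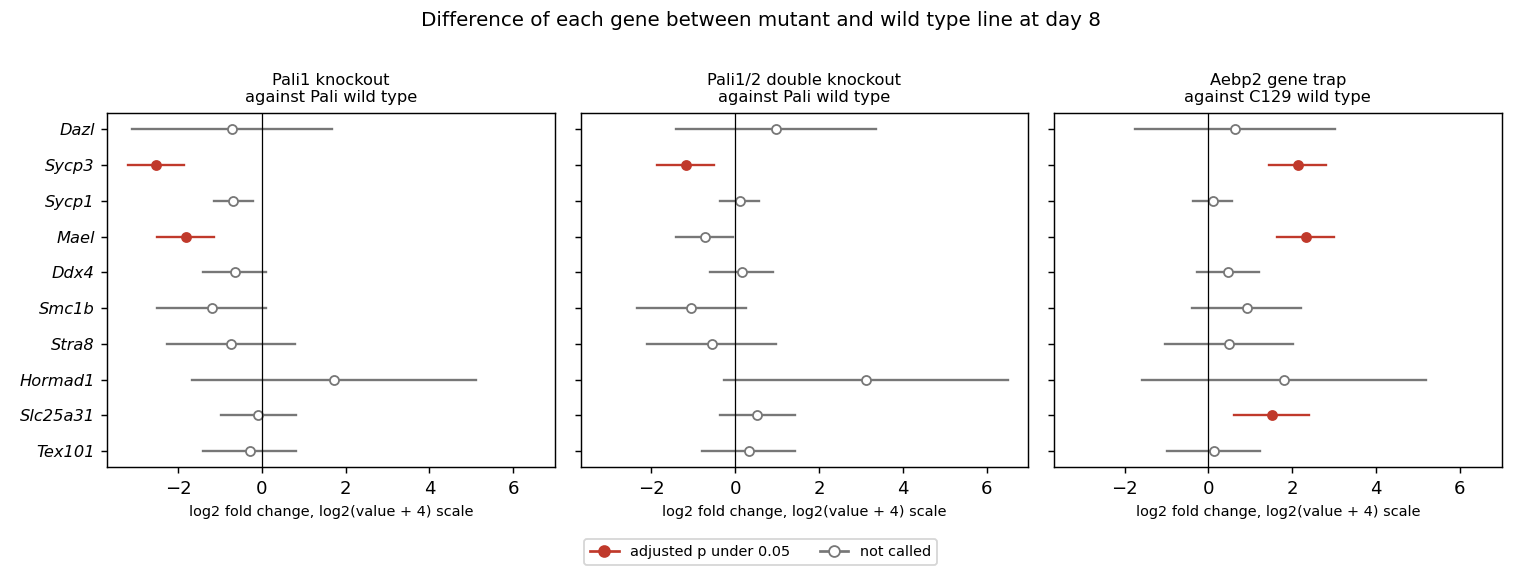
Log2 fold change (x axis, on the log2(value + 4) scale) of each gene between mutant and wild type embryoid bodies at day 8, one panel per mutant line; points are limma estimates and bars 95% intervals, filled where the adjusted p was under 0.05. Sycp3 and Mael lie left of 0 in the Pali1 knockout and right of 0 in the Aebp2 gene trap.

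Sycp1 (3:102818499-102936100, minus strand) encodes the transverse filament of the synaptonemal complex, the protein that spans the gap between paired axes. In Pali1 knockout cells it read 141 and 166 at day 0, 83.2 and 63.1 at day 4 and 104 and 105 at day 8. In Pali1/2 double knockout cells it read 273 and 228 at day 0, 143 and 160.3 at day 4 and 183 and 185 at day 8. In Pali wild type cells it read 193 and 193 at day 0, 217 and 129.5 at day 4 and 199 and 146 at day 8. The single knockout libraries were the lowest of the 3 lines at each time, and the double knockout lay within or above the wild type range at each time. At day 4 Sycp1 averaged 73.2 ± 14.3 in Pali1 knockout and 173 ± 61.6 in Pali wild type cells (SD, n = 2 each; log2 fold change -1.17 ± 0.22 (SE), adjusted p = 0.00766). This call was lost without Pali wild type day 4 replicate 1 (adjusted p = 0.131) or Pali1 knockout day 4 replicate 2 (adjusted p = 0.119). At day 8 the difference was -0.68 (adjusted p = 0.0503) and missed the threshold of 0.05. The double knockout stood above the single knockout at day 4 (log2 fold change 1.02 ± 0.22 (SE), adjusted p = 0.0264). The call was lost on leaving out any 1 of the 4 libraries (adjusted p = 0.0739 and 0.174 without double knockout replicates 1 and 2, 0.0633 and 0.264 without single knockout replicates 1 and 2) and without the 2 libraries whose descriptions conflict with their titles (adjusted p = 0.0864). It also missed the threshold in a fit of the Pali libraries alone (adjusted p = 0.0594).

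In Aebp2 gene trap cells Sycp1 read 192 and 189 at day 0, 253 and 174 at day 4 and 231 and 230.1 at day 8. In C129 wild type cells it read 398 and 375 at day 0, 218 and 240.2 at day 4 and 242 and 192 at day 8. At day 0 both gene trap libraries read lower than both C129 wild type libraries, and at days 4 and 8 the ranges overlapped. Gene trap ES cells averaged 191 ± 2.31 and C129 wild type ES cells 386 ± 16.3 (SD, n = 2 each; log2 fold change -1.002 ± 0.22 (SE), adjusted p = 0.00600), and the call was lost without C129 wild type day 0 replicate 1 (adjusted p = 0.0601). Sycp1 fell between day 0 and day 4 in Pali1 knockout cells (log2 fold change -1.04 ± 0.22 (SE), adjusted p = 0.00158), in all 12 alternative settings as well.

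Smc1b (15:85064689-85131964, minus strand) encodes a meiosis-specific cohesin subunit of the chromosome axis. In Aebp2 gene trap cells it read 217 and 98.3 at day 0, 322 and 156 at day 4 and 1074 and 396 at day 8. In C129 wild type cells it read 1097 and 532 at day 0, 921 and 656 at day 4 and 488 and 242 at day 8. The gene trap libraries lay below C129 wild type at days 0 and 4, and at day 8 the ranges overlapped, with replicate 1 the higher library of both groups. In ES cells the gene trap averaged 158 ± 84.0 and C129 wild type 815 ± 399 (SD, n = 2 each; log2 fold change -2.35 ± 0.62 (SE), adjusted p = 0.0171). The call was lost without Aebp2 gene trap day 0 replicate 2 (adjusted p = 0.171) or C129 wild type day 0 replicate 1 (adjusted p = 0.192), and in a fit of the Aebp2 and C129 libraries alone (adjusted p = 0.0709). In the gene trap line Smc1b rose between day 0 and day 8 (log2 fold change 2.13 ± 0.62 (SE), adjusted p = 0.0135), a call lost without Aebp2 gene trap day 8 replicate 1 (adjusted p = 0.173) or Aebp2 gene trap day 0 replicate 2 (adjusted p = 0.150).

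In Pali1 knockout cells Smc1b read 213 and 122 at day 0, 90.0 and 105 at day 4 and 163 and 81.3 at day 8. In Pali1/2 double knockout cells it read 198 and 62.1 at day 0, 111 and 108 at day 4 and 166 and 98.2 at day 8. In Pali wild type cells it read 93.2 and 50.2 at day 0, 153 and 95.5 at day 4 and 319 and 227 at day 8. Replicate 1 was the higher library of its pair in 14 of the 15 groups of all lines, and at day 8 both wild type libraries lay above all 4 mutant libraries. Neither mutant passed the test at day 8. The log2 fold change was -1.19 in the Pali1 knockout (adjusted p = 0.229) and -1.05 in the double knockout (adjusted p = 0.355). That fit had no term for replicate, so any shift between replicates 1 and 2 counted toward its spread. Within the Pali wild type line Smc1b rose between day 0 and day 8 (log2 fold change 1.91 ± 0.62 (SE), adjusted p = 0.0300). That call was lost without Pali wild type day 8 replicate 1 or 2 (adjusted p = 0.155 or 0.0664) or Pali wild type day 0 replicate 2 (adjusted p = 0.200).

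Hormad1 (3:95559677-95587671, plus strand) encodes a HORMA-domain protein of unsynapsed axes, and its duplicates were often far apart. In Pali1 knockout cells it read 21.4 and 33.2 at day 0, 17.1 and 19.06 at day 4 and 57.9 and 51.9 at day 8. In Pali1/2 double knockout cells it read 191 and 103 at day 0, 87.9 and 0 at day 4 and 164 and 139 at day 8. In Pali wild type cells it read 269 and 12.2 at day 0, 0 and 63.2 at day 4 and 30.4 and 5.28 at day 8. The Pali wild type day 0 pair alone spanned nearly the whole range of the gene. In Aebp2 gene trap cells it read 3.11 and 26.2 at day 0, 66.2 and 15.4 at day 4 and 14.04 and 47.9 at day 8. In C129 wild type cells it read 82.4 and 213 at day 0, 2.34 and 69.0 at day 4 and 0 and 15.04 at day 8. Duplicates differed by more than 4-fold in 5 of the 9 groups with a library at 50 or above. The largest estimate against a wild type was in the double knockout at day 8 (log2 fold change 3.12 ± 1.61 (SE), adjusted p = 0.284; both mutant libraries above both wild type libraries), and Hormad1 passed the test in none of the comparisons of lines or of days.

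Dazl and Ddx4 encode RNA-binding proteins of germ cells: DAZL controls translation from the primordial germ cell stage onwards, and DDX4, the mouse vasa homologue, is an RNA helicase of germ granules. Dazl (17:50279395-50293636, minus strand) read 112 and 132 at day 0, 3.74 and 0 at day 4 and 97.5 and 0 at day 8 in Aebp2 gene trap cells. It read 284 and 228 at day 0, 129.6 and 46.6 at day 4 and 38.8 and 0 at day 8 in C129 wild type cells. At day 4 both gene trap libraries lay below both C129 wild type libraries. At day 0 the gene trap libraries were also the lower ones, and at day 8 the ranges overlapped. The day 4 difference passed the test (log2 fold change -3.89 ± 1.13 (SE), adjusted p = 0.0402), on a log2(value + 4) scale where values near 0 make the fold depend on the added 4. The call was lost without Aebp2 gene trap day 4 replicate 1 or 2 (adjusted p = 0.0998 or 0.170) or C129 wild type day 4 replicate 1 or 2 (adjusted p = 0.264 or 0.0573). It also missed the threshold with an added value of 1 (adjusted p = 0.0534), with no filter (adjusted p = 0.05002) and in a fit of these lines alone (adjusted p = 0.205). A value of exactly 0 can be a failed estimate, since Tfdp1 and Ehmt1, which most cells use, are also listed at 0 in some libraries. Dazl was listed at 0 in 1 gene trap library at day 4, and in 1 library each of gene trap and C129 wild type at day 8.

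In Pali1 knockout cells Dazl read 129.2 and 269 at day 0, 58.2 and 48.3 at day 4 and 36.0 and 36.7 at day 8. In Pali1/2 double knockout cells it read 77.3 and 128 at day 0, 77.1 and 65.6 at day 4 and 219 and 72.7 at day 8. In Pali wild type cells it read 94.5 and 107 at day 0, 83.6 and 49.6 at day 4 and 108 and 35.6 at day 8. The mutant and wild type ranges overlapped at each time, except that both Pali1 knockout libraries were above Pali wild type at day 0, where the difference did not pass (log2 fold change 0.87, adjusted p = 0.807).

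Ddx4 (13:112598333-112652475, minus strand) passed the test in no comparison of a mutant with its wild type. Ddx4 in Pali1 knockout cells read 238 and 235 at day 0, 93.7 and 115 at day 4 and 80.0 and 107 at day 8. Values in Pali1/2 double knockout cells were 245 and 302 at day 0, 128 and 155 at day 4 and 166 and 162 at day 8. Those in Pali wild type cells were 247 and 211 at day 0, 106 and 125 at day 4 and 158 and 138 at day 8. In each of these lines the day 0 libraries were the highest. Values in Aebp2 gene trap cells were 189.7 and 179 at day 0, 187 and 124 at day 4 and 109 and 53.2 at day 8. Values in C129 wild type cells were 299.6 and 191 at day 0, 189.6 and 115 at day 4 and 80.6 and 35.7 at day 8. No mutant differed from its wild type at any time by the test, the estimates running from -0.65 to 0.47 on the log2 scale. The fall between day 0 and day 8 passed in Pali1 knockout (log2 fold change -1.32, adjusted p = 0.00568), Aebp2 gene trap (log2 fold change -1.23, adjusted p = 0.0125) and C129 wild type cells (log2 fold change -2.07, adjusted p = 9.98e-05). That of the Pali1 knockout was lost without Pali1 knockout day 8 replicate 1 (adjusted p = 0.0558). That of the gene trap was lost without Aebp2 gene trap day 8 replicate 2 or Aebp2 gene trap day 0 replicate 1 or 2. It also missed the threshold in a fit of the Aebp2 and C129 libraries alone (adjusted p = 0.1001).

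Stra8 (6:34920163-34939344, plus strand), the gatekeeper of meiotic entry that retinoic acid induces in the gonad, was close to the limit of detection. It was listed at 0 in 17 of 30 libraries, among them all 10 at day 4, and was under 10 in 21. At day 0 it read 22.3 and 0 in Pali1 knockout, 25.4 and 9.15 in Pali1/2 double knockout and 15.3 and 26.7 in Pali wild type ES cells. At day 0 it read 39.6 and 32.3 in Aebp2 gene trap and 37.7 and 20.8 in C129 wild type ES cells. Libraries with any Stra8 were mostly ES cells, and mutant and wild type ranges overlapped in all 3 pairings at day 0. At day 8 it read 0 and 0 in Pali1 knockout, 1.04 and 0 in double knockout and 7.02 and 0 in Pali wild type embryoid bodies, and 0 and 11.5 in gene trap against 3.78 and 0 in C129 wild type embryoid bodies. No mutant differed from its wild type by the test, and the fall to 0 at day 4 passed in double knockout (adjusted p = 0.0249), Pali wild type (adjusted p = 0.0120), gene trap (adjusted p = 0.00189) and C129 wild type cells (adjusted p = 0.00417). The double knockout call was lost without Pali1/2 double knockout day 4 replicate 1 or 2 (adjusted p = 0.0901 or 0.0937) or Pali1/2 double knockout day 0 replicate 1 (adjusted p = 0.215), and without the 2 libraries with conflicting descriptions (adjusted p = 0.337). That of Pali wild type was lost without Pali wild type day 4 replicate 1 or 2 (adjusted p = 0.0564 or 0.0521) or Pali wild type day 0 replicate 2 (adjusted p = 0.0900).

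Slc25a31 (3:40708855-40726096, plus strand) encodes the testis form of the mitochondrial ADP/ATP carrier, needed for male meiosis in mice. In Aebp2 gene trap cells it read 28.3 and 37.6 at day 0, 26.7 and 26.8 at day 4 and 23.9 and 12.3 at day 8. In C129 wild type cells it read 159.8 and 117 at day 0, 44.3 and 22.6 at day 4 and 7.56 and 0.873 at day 8. The C129 line spanned the widest range, from the highest values of all at day 0 to the lowest at day 8, while the gene trap line stayed between 12.3 and 37.6. At day 0 the gene trap averaged 33.0 ± 6.63 and C129 wild type 138 ± 30.5 (SD, n = 2 each; log2 fold change -1.94 ± 0.43 (SE), adjusted p = 0.00573). At day 8 the order was the other way, 18.1 ± 8.23 in the gene trap and 4.21 ± 4.73 in C129 wild type (log2 fold change 1.51 ± 0.43 (SE), adjusted p = 0.0173). The day 0 call was lost without C129 wild type day 0 replicate 1 (adjusted p = 0.0753) and in a fit of these lines alone (adjusted p = 0.0611). The day 8 call was lost without Aebp2 gene trap day 8 replicate 1 (adjusted p = 0.198) or C129 wild type day 8 replicate 2 (adjusted p = 0.255) and in that fit (adjusted p = 0.0880).

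In the Pali lines the mean of Slc25a31 was highest at day 0, at 37.2 and 46.8 in Pali1 knockout, 33.5 and 41.2 in double knockout and 12.1 and 28.8 in Pali wild type ES cells. Both mutants lay above Pali wild type, and neither difference passed (Pali1 knockout log2 fold change 0.99, adjusted p = 0.232; double knockout log2 fold change 0.84, adjusted p = 0.382). At days 4 and 8 it read 7.89 to 12.0 in Pali1 knockout, 8.65 to 19.0 in double knockout and 4.53 to 14.05 in Pali wild type cells. It fell between day 0 and day 4 in Pali1 knockout (log2 fold change -1.84, adjusted p = 0.00296) and double knockout cells (log2 fold change -1.50, adjusted p = 0.0136); the double knockout call was lost without Pali1/2 double knockout day 4 replicate 1 (adjusted p = 0.0984) or Pali1/2 double knockout day 0 replicate 2 (adjusted p = 0.0811) and without the 2 libraries whose descriptions conflict with their titles (adjusted p = 0.163).

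Tex101 (7:24668007-24676675, minus strand), a glycoprotein of the germ cell surface needed for sperm fertility in mice, was under 10 in 25 of 30 libraries. At day 0 it read 10.2 and 3.84 in Aebp2 gene trap and 39.0 and 26.7 in C129 wild type ES cells. The C129 wild type ES cell libraries were the 2 highest of all 30. Gene trap ES cells averaged 7.01 ± 4.48 and C129 wild type ES cells 32.9 ± 8.69 (SD, n = 2 each; log2 fold change -1.78 ± 0.52 (SE), adjusted p = 0.0317). The call was lost without Aebp2 gene trap day 0 replicate 2 (adjusted p = 0.236) or C129 wild type day 0 replicate 1 or 2 (adjusted p = 0.214 or 0.0618). It also missed the threshold with an added value of 1 (adjusted p = 0.0953) and in a fit of these lines alone (adjusted p = 0.105). In the Pali lines it read 3.72 and 8.96 in Pali1 knockout, 12.2 and 5.23 in double knockout and 2.19 and 2.14 in Pali wild type ES cells, with no difference passing the test at any time.

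**Figure D3:**
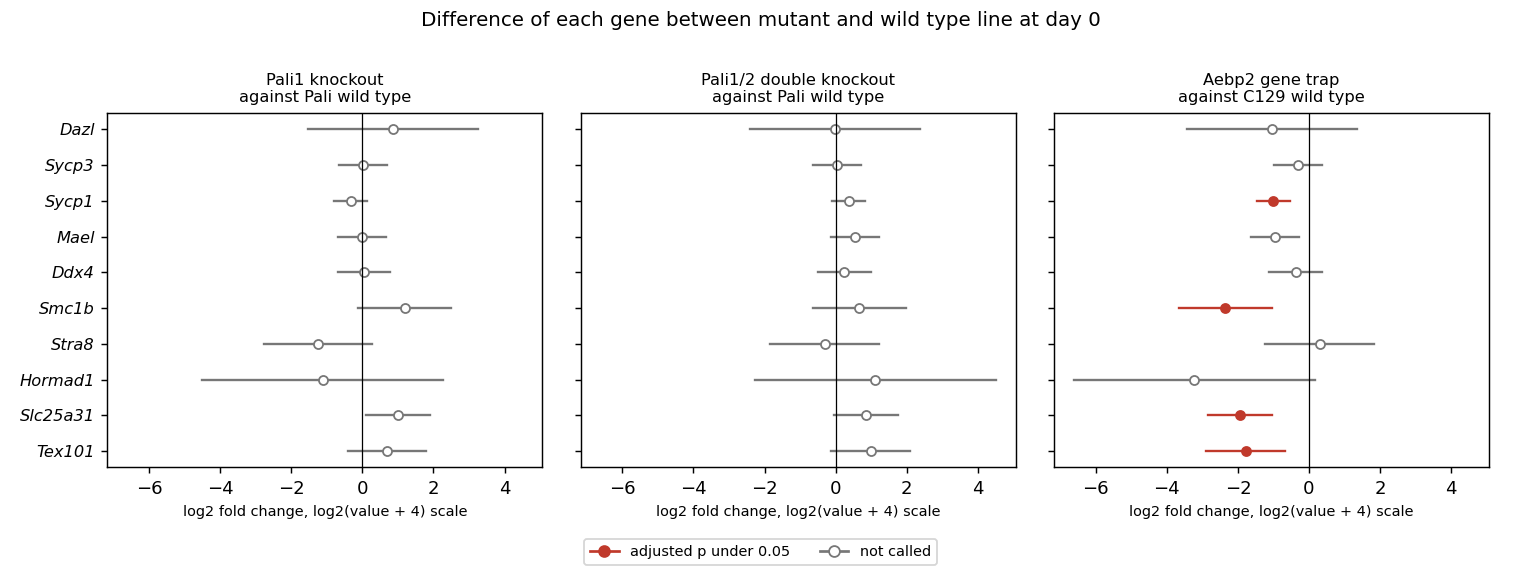
Log2 fold change (x axis, on the log2(value + 4) scale) of each gene between mutant and wild type ES cells at day 0, one panel per mutant line; points are limma estimates and bars 95% intervals, filled where the adjusted p was under 0.05. Only the Aebp2 gene trap panel has filled points, for Sycp1, Smc1b, Slc25a31 and Tex101, all left of 0.

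Counted over the 10 genes, the Pali1 knockout differed from Pali wild type in 0 at day 0, where 4.79% of all 15712 tested genes were called. The limma count at day 0 with an unadjusted p under 0.05 was 1, Slc25a31. At day 4 it differed in 1 gene, Sycp1 (all genes 2.67%), and at day 8 in 2, Sycp3 and Mael, both lower (all genes 13.6%, with 6.52% lower). The median log2 difference of the 10 genes at day 8 was -0.70, beside 0.04 over all tested genes. The double knockout differed in 0 at day 0 (all genes 3.67%; 0 at an unadjusted p under 0.05 by limma), 0 at day 4 (all genes 2.07%; 1, Sycp3, at an unadjusted p under 0.05) and 1 at day 8 (all genes 7.21%). With 10 genes, 1 or 2 calls at day 8 are near the share of all genes in both Pali mutants. The double and single knockouts share the Pali wild type libraries, and set directly against each other the double knockout differed in 0 at day 0 (all genes 3.07%; 1 at an unadjusted p under 0.05 by limma), 1 at day 4 (all genes 1.38%) and 1 at day 8 (all genes 1.37%).

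The Aebp2 gene trap differed from C129 wild type in 4 of the 10 genes at day 0, all lower, where 13.0% of all genes were called and 7.78% were lower. At day 4 it differed in 1, Dazl (all genes 9.01%), and at day 8 in 3, Sycp3, Mael and Slc25a31, all higher (all genes 20.1%, with 9.59% higher). The median log2 difference of the 10 genes was -1.02 at day 0 (all tested genes -0.03) and 0.77 at day 8 (all tested genes -0.01). The day 0 count was 1 in a fit of the Aebp2 and C129 libraries alone and 0 to 4 over fits that left out 1 library.

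The 2 wild type lines differed from each other in these genes, although neither carries a mutation in the labels. In ES cells 6 of the 10 genes were higher in C129 wild type than in Pali wild type, where 21.1% of all genes were called and 12.0% were higher. They were Sycp3 (682 and 802 in C129, 183 and 207 in Pali; log2 fold change 1.90, adjusted p = 0.000374), Mael (455 and 285 in C129, 86.6 and 107 in Pali; log2 fold change 1.86, adjusted p = 0.000488) and Smc1b (1097 and 532 in C129, 93.2 and 50.2 in Pali; log2 fold change 3.40, adjusted p = 0.000702). The others were Sycp1 (398 and 375 in C129, 193 and 193 in Pali; log2 fold change 0.98, adjusted p = 0.00389), Slc25a31 (159.8 and 117 in C129, 12.1 and 28.8 in Pali; log2 fold change 2.61, adjusted p = 0.000286) and Tex101 (39.0 and 26.7 in C129, 2.19 and 2.14 in Pali; log2 fold change 2.56, adjusted p = 0.00188). Neither line's libraries overlapped for any of the 6, and all 6 calls held in each alternative in which the gene was tested; a mean of at least 50 left Slc25a31 and Tex101 out. The median of the 10 genes was 1.58 and that of all tested genes 0.05.

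At day 4 the C129 line was higher in 4 genes (all genes 15.9%, with 8.35% higher). These were Sycp3 (log2 fold change 2.24, adjusted p = 0.000157), Smc1b (log2 fold change 2.64, adjusted p = 0.00701), Slc25a31 (log2 fold change 1.78, adjusted p = 0.00823) and Mael (log2 fold change 1.10, adjusted p = 0.0272). By day 8 it was lower in 2 (all genes 17.3%, with 8.49% lower), Mael (25.5 and 27.9 in C129, 116 and 121 in Pali; log2 fold change -2.00, adjusted p = 0.000330) and Ddx4 (80.6 and 35.7 in C129, 158 and 138 in Pali; log2 fold change -1.39, adjusted p = 0.0104). The day 4 calls of Mael, Smc1b and Slc25a31 were lost without C129 wild type day 4 replicate 1 (adjusted p = 0.250, 0.0726 and 0.127). Those of Mael and Slc25a31 were lost without Pali wild type day 4 replicate 1 (adjusted p = 0.0755 and 0.0898), and those of Mael and Smc1b without Pali wild type day 4 replicate 2 (adjusted p = 0.135 and 0.0627). The day 8 call of Ddx4 was lost without C129 wild type day 8 replicate 2 (adjusted p = 0.200) or Pali wild type day 8 replicate 1 (adjusted p = 0.0726). The C129 wild type libraries are also the ones against which the gene trap was tested, so these values and the gene trap differences share libraries.

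**Figure D4:**
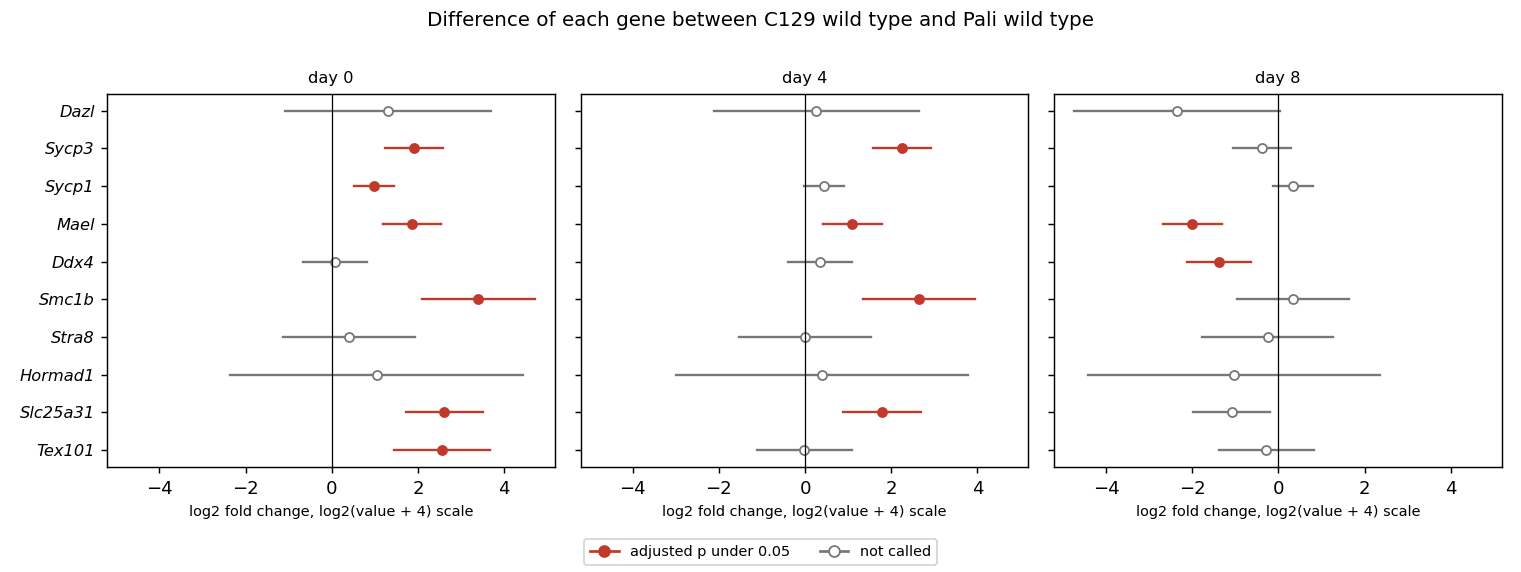
Log2 fold change (x axis, on the log2(value + 4) scale) of each gene between C129 wild type and Pali wild type cells, one panel per day (0, 4, 8); points are limma estimates and bars 95% intervals, filled where the adjusted p was under 0.05. Filled points lie right of 0 for 6 genes at day 0 and 4 at day 4, and left of 0 for Mael and Ddx4 at day 8.

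Over the 8 days the C129 wild type line had the most calls among these genes: 8 of the 10 genes were lower at day 8 than at day 0, where 45.8% of all genes were called. Shares of all genes are for either direction unless 1 is named. Mael (log2 fold change -3.57, adjusted p = 9.27e-08), Slc25a31 (log2 fold change -4.23, adjusted p = 3.22e-07), Sycp3 (log2 fold change -1.74, adjusted p = 0.000224), Ddx4 and Tex101 (log2 fold change -2.25, adjusted p = 0.00176) held in all alternative settings that tested them. Dazl, Sycp1 and Stra8 were lost without C129 wild type day 8 replicate 2 (adjusted p = 0.114, 0.0659 and 0.0858), and Stra8 also without C129 wild type day 0 replicate 1 (adjusted p = 0.0722). Dazl also missed the threshold in a fit of the Aebp2 and C129 libraries alone (adjusted p = 0.0506). By day 4 C129 wild type was lower in 5 genes (all genes 29.1%) and between days 4 and 8 in 4 (all genes 30.8%). Of the day 4 calls, Sycp1, Mael and Tex101 were lost without C129 wild type day 0 replicate 1 (adjusted p = 0.0920, 0.0557 and 0.0518). Sycp1 was also lost without C129 wild type day 0 replicate 2 (adjusted p = 0.0532) or day 4 replicate 1 (adjusted p = 0.0945). Between days 4 and 8 the Ddx4 call was lost without C129 wild type day 4 replicate 1 (adjusted p = 0.0961) or day 8 replicate 2 (adjusted p = 0.138) and in the fit of the Aebp2 and C129 libraries alone (adjusted p = 0.0686). The Pali1 knockout was lower in 4 genes at day 4 (all genes 30.5%), in 4 at day 8 (all genes 42.1%) and, between days 4 and 8, in Sycp3 (all genes 14.5%). Its day 4 call of Mael was lost without Pali1 knockout day 0 replicate 2 (adjusted p = 0.288) or day 4 replicate 1 or 2 (adjusted p = 0.122 or 0.149), with no filter (adjusted p = 0.0560) and in a fit of the Pali libraries alone (adjusted p = 0.0600). That of Ddx4 was lost without Pali1 knockout day 0 replicate 1 or 2 (adjusted p = 0.0768 or 0.0724) or day 4 replicate 1 (adjusted p = 0.121).

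The double knockout was lower in 4 genes at day 4 (all genes 27.5%) and in 2, Mael and Stra8, at day 8 (all genes 30.9%), with 0 between days 4 and 8 (all genes 7.95%; 0 by limma at an unadjusted p under 0.05). The Sycp1 call at day 4 was lost without double knockout day 0 replicate 1 (adjusted p = 0.176), day 4 replicate 1 or 2 (adjusted p = 0.129 or 0.0596), or the 2 libraries whose descriptions conflict with their titles (adjusted p = 0.375). Without those 2 libraries the day 8 count against day 0 was 0. The day 8 calls of Mael and Stra8 were also lost without double knockout day 8 replicate 1 (adjusted p = 0.0734 and 0.0849), day 8 replicate 2 (adjusted p = 0.137 and 0.141) or day 0 replicate 1 (adjusted p = 0.116 and 0.249). Mael was lost without day 0 replicate 2 as well (adjusted p = 0.0887), and Stra8 in a fit of the Pali libraries alone (adjusted p = 0.0521). Pali wild type was lower in 1 gene, Stra8, at day 4 (all genes 27.3%), higher in 1, Smc1b, at day 8 (all genes 25.8%) and differed in 0 between days 4 and 8 (all genes 2.81%; 1, Mael, by limma at an unadjusted p under 0.05). The Aebp2 gene trap had Sycp3 higher and Dazl and Stra8 lower at day 4 (all genes 30.6%), and Smc1b higher and Ddx4 and Stra8 lower at day 8 (all genes 31.3%), with 0 between days 4 and 8 (all genes 8.00%; 3 by limma at an unadjusted p under 0.05). The Dazl call at day 4 missed the threshold in a fit of the Aebp2 and C129 libraries alone (adjusted p = 0.0636). The Stra8 call at day 8 was lost without gene trap day 0 replicate 1 or 2 (adjusted p = 0.0885 or 0.0649) or day 8 replicate 1 (adjusted p = 0.259) and with an added value of 1 (adjusted p = 0.0555).

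Differences between effects were tested as interaction terms. From day 0 to day 8 the Pali1 knockout effect changed for 2 of the 10 genes (all genes 5.73%), Sycp3 and Mael. The gene trap effect changed for 5 (all genes 15.3%): Sycp3, Sycp1, Mael, Smc1b and Slc25a31. The changes from day 0 passed for 0 genes by limma for the Pali1 knockout at day 4 (all genes 0.426%; 1 at an unadjusted p under 0.05), the gene trap at day 4 (all genes 1.03%; 4 unadjusted) and the double knockout at day 4 (all genes 0.477%; 0 unadjusted) and day 8 (all genes 1.12%; 2 unadjusted). Between the wild type lines the course differed for 1 gene at day 4, Tex101 (all genes 8.99%), and for 5 at day 8 (all genes 14.2%). The gene trap effect differed from the Pali1 knockout effect for 3 genes at day 0 (all genes 15.1%), 1 at day 4 (all genes 8.17%) and 2 at day 8 (all genes 28.5%). It differed from the double knockout effect for 5 at day 0 (all genes 12.8%), 0 at day 4 (all genes 6.07%; 3 by limma at an unadjusted p under 0.05) and 2 at day 8 (all genes 24.0%).

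Ranked over the 15 group means, Sycp3 was highest in Aebp2 gene trap day 4 cells (1649), then C129 wild type day 4 (1325), gene trap day 8 (976) and C129 wild type day 0 (742), and lowest in Pali1 knockout day 8 cells (47.0). Of the 14 neighbouring pairs in its order, 6 overlapped in their libraries, the fewest of any of the genes. The count was 8 for Mael, 9 for Sycp1, 11 for Ddx4, 12 for Slc25a31 and Tex101, 13 for Smc1b and Hormad1, and 14 for Dazl and Stra8, so for all but Sycp3 most neighbours in the order do not differ beyond the spread of duplicates. Mael was highest in C129 wild type day 0 cells (370.0) and lowest in C129 wild type day 8 cells (26.7). Over all 10 genes, duplicates were more than 4-fold apart in 6 of the 95 pairs with a library at 50 or above (6.32%), beside 6652 of 161387 pairs of all genes (4.12%). 

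Correlated over the 15 group means of log2(value + 4), the genes did not form a single block; the groups share lines and days, so these values describe the table only. Mael and Slc25a31 were the most alike pair (Pearson r = 0.835), followed by Slc25a31 and Tex101 (0.779), Ddx4 and Slc25a31 (0.753) and Sycp3 and Mael (0.743), and the lowest pair was Dazl and Sycp3 (r = -0.264). Among genes with a mean of at least 50 over all libraries, those most like each member were, with r over 15 groups, Eno1b (0.918), Utp14a (0.904) and Egfl7 (0.903) for Sycp3, and Eng (0.917), Hist1h2aa (0.911) and Tubb4b (0.909) for Mael. The nearest gene was Trmt6 for Sycp1 (0.859), Fxyd6 for Smc1b (0.915), Galnt6 for Dazl (0.898) and Imp4 for Ddx4 (0.952). It was Sntb2 for Stra8 (0.970), A630089N07Rik for Slc25a31 (0.946) and Gm21319 for Tex101 (0.944).

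Other genes of the same structures were read from lists of the pathway. Of 16 further synaptonemal complex and axis genes, 13 were in the table and 9 passed the filter. At day 8 the Pali1 knockout was lower in 2 of the 9 (all genes 6.52% lower), Syce2 and Syce3, parts of the central element, with a list median of -0.62 beside 0.04 for all tested genes. Syce2 averaged 1086 ± 51.0 in Pali1 knockout and 1849.9 ± 133 in Pali wild type embryoid bodies (log2 fold change -0.77, adjusted p = 0.0184). The Aebp2 gene trap at day 8 was higher in 6 of the 9 (all genes 9.59% higher; Sycp2l, Syce1, Syce2, Syce3, Stag3 and Terb2), with a median of 1.40 beside -0.01. Syce3 averaged 33.9 ± 12.4 in gene trap and 1.68 ± 1.198 in C129 wild type embryoid bodies (log2 fold change 2.72, adjusted p = 0.000208). In ES cells the gene trap was lower in 1, Syce1 (all genes 13.0%), and the Pali1 knockout was higher in 1, Sycp2l (all genes 4.79%). The double knockout differed in 1 at day 4, Syce3, lower (all genes 2.07%).

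Of 26 genes of meiotic recombination, 18 were tested. Mnd1, which helps strand invasion, passed the test at day 8 in both comparisons. It averaged 443 ± 86.7 in Pali1 knockout and 661 ± 42.5 in Pali wild type embryoid bodies (log2 fold change -0.58, adjusted p = 0.0105), and 826 ± 119.5 in gene trap and 532 ± 31.1 in C129 wild type embryoid bodies (log2 fold change 0.62, adjusted p = 0.00420). Rec114, a partner of the break-forming machinery, averaged 105 ± 28.9 in gene trap and 14.03 ± 1.14 in C129 wild type embryoid bodies (log2 fold change 2.57, adjusted p = 0.00961). These were the list's calls between a mutant and its wild type. At day 8, 13.6% of all tested genes were called in the Pali1 knockout and 20.1% in the gene trap. Of 13 genes around meiotic entry, 10 were tested. Cyp26b1, which degrades retinoic acid, averaged 50.1 ± 21.8 in Pali1 knockout and 287 ± 65.3 in double knockout embryoid bodies, against 9.89 ± 4.53 in Pali wild type at day 8 (single knockout log2 fold change 1.94, adjusted p = 0.000569; double knockout log2 fold change 4.41, adjusted p = 5.07e-07). It was listed at 0 in both gene trap libraries at day 8, against 14.4 ± 0.468 in C129 wild type. At that day the gene trap was higher in Meioc and lower in 4 genes of this list (all genes 20.1%).

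Of 22 piRNA and germ granule genes, 18 were tested. Tdrd12, a Tudor-domain partner of the piRNA pathway, averaged 389 ± 54.3 in Pali1 knockout and 1181 ± 232 in Pali wild type embryoid bodies (log2 fold change -1.59, adjusted p = 0.000664) at day 8. It averaged 1063 ± 131 in gene trap and 239 ± 24.3 in C129 wild type embryoid bodies (log2 fold change 2.13, adjusted p = 2.29e-05) at day 8. At day 8 the list had 2 called lower in the Pali1 knockout (all genes 13.6%) and 3 higher and 2 lower in the gene trap (all genes 20.1%). At day 0 it had 2 higher in the Pali1 knockout, Asz1 and Fkbp6 (all genes 4.79%), and 4 lower in the gene trap (all genes 13.0%, with 7.78% lower). At day 4 Tdrd12 was lower in both Pali mutants (all genes 2.67% in the single and 2.07% in the double knockout). The gene trap had Pld6 higher and Piwil1 lower at day 4 (all genes 9.01%). List medians at day 8 were 0 in the Pali1 knockout and 0 in the gene trap. In the double knockout, which had no call at days 0 and 8 (all genes 3.67% and 7.21%), the day 8 median was -0.08. Of 28 genes of germ cell specification and primordial germ cells, 24 were tested, and at day 8 the Pali1 knockout was lower in 8 (all genes 6.52% lower). The double knockout was lower in 5 (all genes 7.21%), and the gene trap was higher in 10 (all genes 9.59% higher) and lower in 1, Zbtb16. Tex19.1 averaged 313 ± 16.2 in Pali1 knockout and 943 ± 46.1 in Pali wild type embryoid bodies (log2 fold change -1.58, adjusted p = 1.62e-05). The averages were 1574 ± 293 in gene trap and 284 ± 6.56 in C129 wild type embryoid bodies (log2 fold change 2.44, adjusted p = 9.55e-08). Several of these genes, Dppa2, Dppa4, Prdm14 and Tex19.1 among them, are also expressed in ES cells.

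Markers of other cell states also differed between mutant and wild type lines. At day 8 the 8 pluripotent cell markers summed to 33261 and 26931 in Pali1 knockout and 35246 and 36631 in double knockout, against 54228 and 46714 in Pali wild type embryoid bodies. They summed to 52484 and 48820.1 in gene trap, against 23314 and 15710.0 in C129 wild type embryoid bodies, and none of the 8 was at 0 in any group. The sums were thus lower than wild type in both Pali mutants and higher in the gene trap. Of the 8 markers, 4 were lower in the Pali1 knockout (Sox2, Zfp42, Esrrb and Tfcp2l1), 3 were lower in the double knockout, and 7 were higher in the gene trap. Of all tested genes, 13.6%, 7.21% and 20.1% were called at day 8 in the Pali1 knockout, double knockout and gene trap. At day 0 the sums were 105942 and 119345 in gene trap and 107486 and 97596 in C129 wild type ES cells, with a median log2 difference of 0.21. The 6 neural markers at day 8 summed to 10188 and 11878 in Pali1 knockout and 11878 and 10568 in double knockout, against 6029 and 4653 in Pali wild type, with 1 (Nes) and 3 called higher. They summed to 4221 and 5769 in gene trap, against 8046 and 7753 in C129 wild type embryoid bodies, with 2 called lower (Sox1 and Neurog2). The 6 mesoderm markers summed to 1135 and 887 in Pali1 knockout and 866 and 2019 in double knockout, against 463 and 486 in Pali wild type, with T and Mixl1 called higher in each mutant and Hand1 lower in the Pali1 knockout. Their sums were 219 and 206 in gene trap and 604 and 225 in C129 wild type, with a median log2 difference of -0.85 and no call. Of 7 endoderm markers, Sox17 and Foxa2 were higher and Afp lower in each Pali mutant, and Sox17 and Foxa2 were lower in the gene trap. The 7 summed to 1410 and 973 in Pali1 knockout and 669 and 1572 in double knockout embryoid bodies. In Pali wild type they summed to 126 and 2875, so the wild type duplicates were far apart and the mutant sums lay between them. They summed to 291 and 212 in gene trap and 1050 and 1762 in C129 wild type. Of 5 primed epiblast markers, the gene trap had 3 higher (Fgf5, Pou3f1 and Dnmt3b) and 1 lower (Sox3). The median log2 difference of these 5 was 0.29 in the Pali1 knockout and 0.27 in the double knockout, with no call. The part of these cell states in the results for Sycp3 and Mael was not tested.

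Markers of 2-cell-like cells, a rare state of ES cell cultures that expresses Zscan4 genes, also differed between lines in ES cells. The 10 of 11 listed markers that were in the table summed to 6926 and 5720.1 in gene trap and 41391 and 30068 in C129 wild type ES cells. In the gene trap 10 were called lower (all genes 13.0%, with 7.78% lower). They summed to 794 and 1579 in Pali1 knockout and 1934 and 1128 in double knockout, against 109.6 and 62.0 in Pali wild type ES cells. In each mutant 9 were called higher (all genes 4.79% in the single and 3.67% in the double knockout). C129 wild type was higher than Pali wild type in all 10 markers (all genes 21.1%, with 12.0% higher). Of the germline and meiosis genes, 0 were called in either Pali mutant at day 0 (all genes 4.79% and 3.67%). The part of the 2-cell-like markers in the day 0 differences of Sycp1, Smc1b, Slc25a31 and Tex101 was not tested. Markers of the somatic cells of the gonad (8 listed, 6 tested) summed to 344 to 906 over the 15 groups. The calls among them were Wt1 higher and Foxl2 lower in the gene trap at day 8 (all genes 20.1%). Of 22 genes of later sperm stages 19 were in the table and 8 passed the filter, and Prm1 and Pgk2 were listed at 0 in both day 8 libraries of each line. The 19 genes summed to 421 to 1913 normalised counts in the day 8 libraries, with 4 to 7 of them at 0 in both libraries of a line. Markers of fibroblast feeders (8 listed, 7 tested) were higher in 1 gene in Pali1 knockout (all genes 4.79%) and 3 in double knockout ES cells (all genes 3.67%). Their sums were 117 and 145 and 356 and 322, against 62.5 and 71.6 in Pali wild type.

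**Figure D5:**
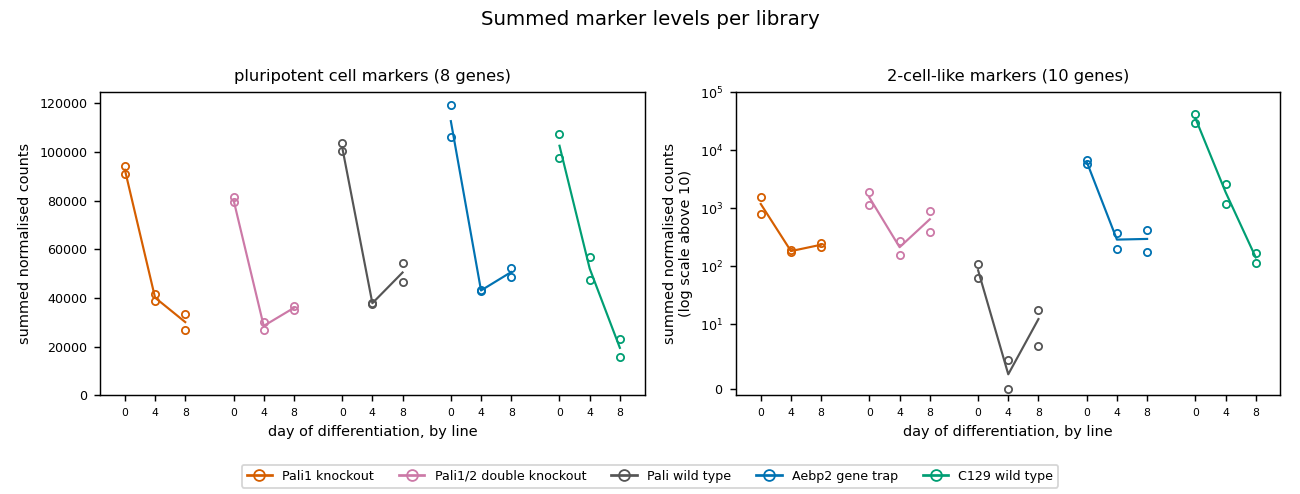
Summed normalised counts of the 8 pluripotent cell markers (left, linear axis from 0) and of 10 markers of 2-cell-like cells (right, log axis above 10) against day of differentiation, one block per line; circles are the 2 libraries of a group and lines join their means. At day 8 the pluripotent sums are lower in both Pali mutants than in Pali wild type and higher in the Aebp2 gene trap than in C129 wild type; at day 0 the 2-cell-like sums are highest in C129 wild type.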

How the data were processed

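Total RNA depleted of ribosomal RNA was sequenced from 30 libraries, per the labels' protocols. Their values reached GEO as normalised counts (a signal), in the single table the authors deposited. These are not whole numbers, so no count model was applied. Tools named without roles per the submitters' processing notes are DESeq2, HISAT2 (2.0.5) and kallisto (0.43.1), with the build mm10. How values were scaled, and whether reads were counted by strand, is not stated there. Estimated depth came from the most frequent value under 10 of each library, taken as 1 read (0.651 to 1.27); 81.3% to 86.1% of values under 8 steps were whole multiples within 0.001, too few to recover reads. Between 12142 and 13390 genes per library reached 10.

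Samples were grouped by their titles. Tests used limma 3.58.1 in R 4.3.3 on log2(value + 4), with a mean for each of the 15 groups, 30 libraries, 15 residual degrees of freedom, and trended and robust variance moderation. The 15712 genes that reached 10 in 2 libraries or more were tested. The p-values were adjusted over all of them by Benjamini-Hochberg within each of 44 contrasts, with calls under 0.05. A fold change on this scale understates the change of low genes. Recovery was checked in simulated data for the Aebp2 gene trap and C129 wild type at day 8 (15712 genes). The test found 57 of 100 genes altered 2-fold and 80 of 100 altered 4-fold, and 13 of its 150 calls were false. Only genes averaging 50 or more were altered, on the log2(value + 4) scale. The recovery therefore does not cover Slc25a31, Stra8 and Tex101, which average less. All other genes were simulated without a difference, whereas 20.1% of tested genes were called in the real comparison. The recovered and false shares need not hold there. Tables and plots used Python 3.11.15, pandas 2.3.3, numpy 2.4.6 and matplotlib 3.10.9.

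The named genes were the 10 members, the 3 genes most correlated with each over the 15 group means (of which the text gives the nearest, and all 3 for Sycp3 and Mael; that of Hormad1 is not reported here), up to 3 called genes per list, direction and contrast by adjusted p (the text gives some of these and lists other called genes by name), and the targeted loci. The members and gene lists were chosen with earlier results of these data known. Alternatives were added values of 1 and 16, no filter, a mean of at least 50, 2 rescalings, a replicate block and leaving out each library. Others were fits of the Pali libraries alone and of the Aebp2 and C129 libraries alone. Leaving out the 2 libraries with conflicting descriptions was added after seeing the data. Gene positions are from GENCODE M21 on GRCm38, and promoters from RefSeq on GRCm38.p6.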

Additional observations from a re-analysis of the deposited data

Results flagged for a closer look

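Differences between effects, tested as interaction terms by limma on the log2(value + 4) scale, are given here where the adjusted p was under 0.05.

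The effect of the Pali1 knockout at day 8 minus that at day 0 passed for 2 of the 10 genes (all genes 5.73%). The log2 difference was -2.55 for Sycp3 (adjusted p = 0.00477) and -1.81 for Mael (adjusted p = 0.0276). For Sycp3 the effect itself was 0.03 at day 0 and -2.53 at day 8. For Mael it was -0.01 at day 0 and -1.82 at day 8. The Mael difference was lost without Pali wild type day 8 replicate 1 or 2 (adjusted p = 0.0620 or 0.0769) or Pali wild type day 0 replicate 1 or 2 (adjusted p = 0.0752 or 0.0666). It was also lost without Pali1 knockout day 8 replicate 2 (adjusted p = 0.143) or Pali1 knockout day 0 replicate 2 (adjusted p = 0.0990).

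The effect of the Aebp2 gene trap at day 8 minus that at day 0 passed for 5 of the 10 genes (all genes 15.3%). It was 3.27 for Mael (adjusted p = 0.000203), 3.45 for Slc25a31 (adjusted p = 0.00109) and 3.27 for Smc1b (adjusted p = 0.0172). It was also 2.44 for Sycp3 (adjusted p = 0.00167) and 1.10 for Sycp1 (adjusted p = 0.0248). By their estimates all 5 were lower in the gene trap than in C129 wild type at day 0 and higher at day 8. The Sycp1 difference was lost without Aebp2 gene trap day 8 replicate 1 or 2 (adjusted p = 0.0725 or 0.0549) or Aebp2 gene trap day 0 replicate 1 or 2 (adjusted p = 0.0545 or 0.0633). The same held without C129 wild type day 8 replicate 2 (adjusted p = 0.108) or C129 wild type day 0 replicate 1 (adjusted p = 0.0769). It did not pass in a fit of the Aebp2 and C129 libraries alone (adjusted p = 0.0534). The Smc1b difference was lost without Aebp2 gene trap day 8 replicate 1 (adjusted p = 0.0997) or Aebp2 gene trap day 0 replicate 2 (adjusted p = 0.0788). So it was without C129 wild type day 8 replicate 2 (adjusted p = 0.0857) or C129 wild type day 0 replicate 1 (adjusted p = 0.0844). Nor did it pass in a fit of the Aebp2 and C129 libraries alone (adjusted p = 0.0673).

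The course of the C129 wild type line minus that of the Pali wild type line passed for 1 gene between days 0 and 4 (all genes 8.99%). It was -2.58 for Tex101 (adjusted p = 0.0373). Between days 0 and 8 the difference in course passed for 5 genes (all genes 14.2%). It was -3.86 for Mael (adjusted p = 3.62e-05), -3.70 for Slc25a31 (adjusted p = 0.000537) and -3.05 for Smc1b (adjusted p = 0.0261). It was also -2.84 for Tex101 (adjusted p = 0.0158) and -2.29 for Sycp3 (adjusted p = 0.00254). The day 4 difference of Tex101 was lost without C129 wild type day 4 replicate 1 or 2 (adjusted p = 0.111 or 0.0626) or C129 wild type day 0 replicate 1 or 2 (adjusted p = 0.132 or 0.0530). It was also lost without Pali wild type day 4 replicate 2 (adjusted p = 0.121) or Pali wild type day 0 replicate 1 or 2 (adjusted p = 0.0910 or 0.0824). It missed the threshold with an added value of 1 (adjusted p = 0.0809). Its day 8 difference was lost without C129 wild type day 8 replicate 2 (adjusted p = 0.0504) or C129 wild type day 0 replicate 1 (adjusted p = 0.0660). The same held without Pali wild type day 8 replicate 2 (adjusted p = 0.0555). That of Smc1b was lost without C129 wild type day 8 replicate 2 (adjusted p = 0.119) or C129 wild type day 0 replicate 1 (adjusted p = 0.116). So it was without Pali wild type day 8 replicate 1 (adjusted p = 0.0874) or Pali wild type day 0 replicate 2 (adjusted p = 0.103).

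The gene trap effect minus the Pali1 knockout effect passed for 3 genes at day 0 (all genes 15.1%). It was -3.54 for Smc1b (adjusted p = 0.00991), -2.93 for Slc25a31 (adjusted p = 0.00283) and -2.48 for Tex101 (adjusted p = 0.0297). At day 4 it passed for 1 gene (all genes 8.17%), at 1.04 for Sycp1 (adjusted p = 0.0490). At day 8 it passed for 2 genes (all genes 28.5%), at 4.66 for Sycp3 (adjusted p = 9.20e-07) and 4.14 for Mael (adjusted p = 3.30e-06). At day 0 the Smc1b difference was lost without Aebp2 gene trap day 0 replicate 2 (adjusted p = 0.0539) or C129 wild type day 0 replicate 1 (adjusted p = 0.0578). That of Tex101 was lost without Aebp2 gene trap day 0 replicate 2 (adjusted p = 0.123) or C129 wild type day 0 replicate 1 (adjusted p = 0.109). It was also lost without Pali wild type day 0 replicate 1 or 2 (adjusted p = 0.0704 or 0.0733) or Pali1 knockout day 0 replicate 2 (adjusted p = 0.118). It did not pass with an added value of 1 (adjusted p = 0.0660). The day 4 difference of Sycp1 was lost without Aebp2 gene trap day 4 replicate 1 (adjusted p = 0.216) or C129 wild type day 4 replicate 1 or 2 (adjusted p = 0.141 or 0.0739). The same held without Pali wild type day 4 replicate 1 (adjusted p = 0.228) or Pali1 knockout day 4 replicate 2 (adjusted p = 0.198). Nor did it pass with an added value of 16 (adjusted p = 0.0568), with no filter (adjusted p = 0.0625) or with upper-quartile rescaling (adjusted p = 0.0554).

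The gene trap effect minus the double knockout effect passed for 5 genes at day 0 (all genes 12.8%). It was -3.02 for Smc1b (adjusted p = 0.0289), -2.78 for Slc25a31 (adjusted p = 0.00509) and -2.77 for Tex101 (adjusted p = 0.0186). The difference was -1.49 for Mael (adjusted p = 0.0390) and -1.36 for Sycp1 (adjusted p = 0.00748). At day 8 it passed for 2 genes (all genes 24.0%), at 3.31 for Sycp3 (adjusted p = 4.98e-05) and 3.04 for Mael (adjusted p = 0.000113). At day 0 the Mael difference was lost without Aebp2 gene trap day 0 replicate 1 or 2 (adjusted p = 0.0795 or 0.0927) or C129 wild type day 0 replicate 1 (adjusted p = 0.183). So it was without Pali wild type day 0 replicate 1 or 2 (adjusted p = 0.126 or 0.0566) or Pali1/2 double knockout day 0 replicate 1 or 2 (adjusted p = 0.0988 or 0.0804). It missed the threshold without the 2 libraries with conflicting descriptions (adjusted p = 0.107). That of Smc1b was lost without Aebp2 gene trap day 0 replicate 2 (adjusted p = 0.128) or C129 wild type day 0 replicate 1 (adjusted p = 0.134). It was also lost without Pali wild type day 0 replicate 2 (adjusted p = 0.111) or Pali1/2 double knockout day 0 replicate 1 (adjusted p = 0.153). It did not pass without the 2 libraries with conflicting descriptions (adjusted p = 0.173). That of Tex101 was lost without Aebp2 gene trap day 0 replicate 2 (adjusted p = 0.0889) or C129 wild type day 0 replicate 1 (adjusted p = 0.0793). The same held without Pali wild type day 0 replicate 1 (adjusted p = 0.0508) or Pali1/2 double knockout day 0 replicate 1 (adjusted p = 0.0889). Nor did it pass without the 2 libraries with conflicting descriptions (adjusted p = 0.0838). Both sets of differences from the gene trap effect share the gene trap, C129 wild type and Pali wild type libraries.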

How the results depend on the processing

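The day 8 calls of Sycp3 and Mael in the Pali1 knockout and Aebp2 gene trap held in all alternatives tried, and no direction of a called gene was reversed. Counts of called genes among the 10 moved by over 1.5 times as follows, and the cause was not tested. For the gene trap at day 0 (4 called) the count was 2 with a mean of at least 50, which removes Slc25a31 and Tex101. It was 1 in a fit of the Aebp2 and C129 libraries alone. At day 4 (1 called) it was 0 with an added value of 1, with no filter and in that fit. The double knockout at day 8 against day 0 (2 called) had 1 with a mean of at least 50 and 0 without the 2 libraries with conflicting descriptions, a fit in which the remaining library is assumed to vary like the other groups. Pali wild type at day 8 against day 0 (1 called) had 2 in a fit of the Pali libraries alone. Leaving out 1 library gave 0 to 1 for the Pali1 knockout at day 4, 0 to 1 for the double knockout at day 8, 0 to 4 for the gene trap at day 0 and 0 to 0 at day 4. It gave 1 to 4 between wild type lines at day 4 and 1 to 5 at day 8. For day 8 against day 0 it gave 0 to 1 in the double knockout, 0 to 1 in Pali wild type, 0 to 2 in the gene trap and 5 to 8 in C129 wild type. Same-numbered libraries deviated from their group means with correlations of -0.0623 to 0.109 over 19 pairs, 1 of them over 0.1. The fit as reported did not pair libraries by number. A correlation over all tested genes cannot show whether single genes share a replicate effect. With the replicate block the counts were 1 for the Pali1 knockout at day 0 (0 without it), 4 at day 8 (2 without it) and 2 for the gene trap at day 4 (1 without it). Of all tested genes, 4.43% were called in the Pali1 knockout at day 4 with a mean of at least 50 (2.67% in the fit as reported). Without the 2 libraries, 1.5% and 0.923% were called in the double knockout at days 0 and 4 (3.67% and 2.07%), and 20.0% at day 8 against day 0 (30.9%). With no filter the double knockout had 1.36% at day 4. In a fit of the Aebp2 and C129 libraries alone the gene trap had 6.23% and 2.51% at days 0 and 4 (13.0% and 9.01%). Leaving out 1 library gave 2.00% to 3.12%, 0.955% to 1.90% and 6.02% to 9.55% at days 0, 4 and 8 in the Pali1 knockout (4.79%, 2.67% and 13.6%), 1.65% to 2.69%, 0.509% to 1.48% and 1.96% to 4.86% in the double knockout (3.67%, 2.07% and 7.21%) and 5.12% to 9.82%, 2.56% to 7.47% and 10.7% to 18.0% in the gene trap (13.0%, 9.01% and 20.1%). Between the wild type lines it gave 11.6% to 16.7%, 7.32% to 13.2% and 9.18% to 16.6% (21.1%, 15.9% and 17.3%). Depth limits Stra8 and Tex101 most, since 1 read is worth 0.651 to 1.27 and most of their values are under 10.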

Other observations

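Of 15 subunits of PRC1.6 and E2F6 complexes, all were tested. At day 8 the Pali1 knockout had 1 higher (Ring1) and 3 lower (L3mbtl2, Rybp and Cbx3), where 13.6% of all genes were called. The list median was -0.05 beside 0.04 for all tested genes. Cbx3, which encodes HP1 gamma, averaged 3126 ± 291 in Pali1 knockout and 6521 ± 166 in Pali wild type cells (SD, n = 2 each; limma log2 fold change -1.06, adjusted p = 0.000459) at day 8, and it was also lower at days 0 and 4. The gene trap had Cbx3 higher at days 0 and 4 and Ring1 higher at day 0. Max was lower there at day 4, and at day 8 L3mbtl2 and Rybp were higher and Ring1 lower. Of all genes, 13.0%, 9.01% and 20.1% were called in the gene trap at days 0, 4 and 8. Of 13 enzymes of DNA and histone H3 lysine 9 methylation, Dnmt3l, the cofactor of the de novo DNA methyltransferases, averaged 5196 ± 145 in Pali1 knockout and 1768 ± 8.20 in Pali wild type cells (log2 fold change 1.55, adjusted p = 0.00120) at day 0. It averaged 5315 ± 748 in double knockout ES cells (log2 fold change 1.58, adjusted p = 0.00106). In the gene trap at day 8, 4 of the 13 were higher (Dnmt3b, Dnmt3l, Trim28 and Zfp57) and 1 lower (Dnmt1), where 20.1% of all genes were called.

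Of 14 oocyte genes, 6 were tested. Ooep, a maternal-effect gene of the oocyte cortex that ES cells also express, averaged 184 ± 14.8 in Pali1 knockout and 633 ± 88.6 in Pali wild type cells (log2 fold change -1.75, adjusted p = 3.34e-05) and 716 ± 137 in gene trap and 114 ± 9.59 in C129 wild type cells (log2 fold change 2.60, adjusted p = 3.09e-07) at day 8. Zp3 was also higher in the gene trap at day 8, and Nlrp5 in the Pali1 knockout. Of all genes, 20.1% were called in the gene trap and 13.6% in the Pali1 knockout at day 8.

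Smc1b read higher in replicate 1 than in replicate 2 in 14 of the 15 groups. Among all 15712 tested genes, 2.14% had replicate 1 higher in 14 or 15, or in 0 or 1, of the 15 groups. Pairs with equal values counted as replicate 1 not higher, so that share can include genes listed at 0 in most groups. Among the other 9 genes described here the count for replicate 1 ran between 7 and 10.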
